A study of Mus musculus with 9 samples.

Results

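The MYC, MAX and MXD network was followed here as 10 genes, taken from the 48526 genes of the count table by the Ensembl identifiers of *Myc*, *Mycn*, *Mycl*, *Max*, *Mxi1*, *Mxd1*, *Mxd3*, *Mxd4*, *Mnt* and *Mlx*. All 10 had enough counts to be tested, among 18858 tested genes. The NSCs (neural stem cells) came from the SEZ, the subependymal zone of the brain, of adult C57BL/6 mice (C57BL/6J in the methods) 2 to 4 months old, and were grown as neurospheres in medium with EGF and FGF. Differentiation was induced on an adhesive substrate without EGF, with FGF kept, and mRNA was sequenced before (0 h) and 1 h and 6 h after, with 3 libraries per time point. The labels name no transgene, deletion or drug in any group, and the 0 h cells served as the undifferentiated reference. Each library carries a letter (B, C or D) that occurs once at each time point, and the labels do not say what libraries with the same letter share, nor how many animals went into each.

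The proteins of this network have basic helix-loop-helix leucine zipper domains and bind DNA as dimers. MYC, MYCN and MYCL each pair with MAX, bind the E-box CACGTG and recruit coactivators, and are known for driving ribosome production, growth and proliferation. MXD1, MXI1, MXD3, MXD4 and MNT pair with MAX too, bind the same E-box and recruit SIN3 corepressors with histone deacetylases, so that they compete with the MYC proteins for partner and site. MLX is a further partner, of some MXD proteins, of MNT and of the glucose-sensing factors MondoA (MLXIP) and ChREBP (MLXIPL). In the nervous system *Mycn* is known for the expansion of embryonic neural progenitors, and *Mxd1* for its rise in cells that leave the cell cycle and differentiate.

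RefSeq promoters (GRCm38.p6, from 250 bases before to 50 bases after a start site) were given for 9 of the 10 members, all other than *Myc*, and were searched on both strands for the E-box that the network itself binds. The E-box CACGTG was in 4 of the 11 promoters of these members, each of a different member, and in 2349 of the 32851 promoters of the table (7.15%). The stretches of these 4 promoters around the E-box are shown because they let a reader see which members carry the letters that their own proteins bind. Each is written 5′ to 3′ on the strand of its gene with the E-box in capitals.
Mxd4, chr5:34187897-34187956, minus strand: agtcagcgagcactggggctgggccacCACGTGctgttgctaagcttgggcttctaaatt
Mnt, chr11:74830774-74830833, plus strand: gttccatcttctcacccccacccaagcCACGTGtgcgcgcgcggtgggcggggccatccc
Mlx, chr11:101087223-101087282, plus strand: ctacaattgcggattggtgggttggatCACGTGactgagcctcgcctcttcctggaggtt
Max, chr12:76962246-76962278, minus strand: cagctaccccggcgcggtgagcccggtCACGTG
The E-box began 219 bases before the start site in *Mxd4*, 123 before it in *Mnt*, 40 before it in *Mlx* and 3 before it in *Max*, where it runs across the start site. These are the start sites of RefSeq, which can differ from the ends of the gene spans given below. The promoters of *Mycn*, *Mycl*, *Mxd1*, *Mxd3* and *Mxi1* in this table did not hold these letters.

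Motifs of other factors known to regulate members were searched in the same promoters. E2F factors, which control genes of the cell cycle, are known to regulate *Mycn*, and its promoter held 3 matches to an E2F motif (TTTCCCGC, TTTGGCGC or TTTCGCGC, on either strand), of which 2 overlap, the first of them 183 bases before the start. FOXO factors, which are active when growth factor signalling is low, are known to regulate *Mxi1*, and 1 of its 3 promoters held the FOXO motif GTAAACA, 231 bases before the start. That start site is the most downstream of the 3 and lies inside the gene span given for *Mxi1* below. Each of these motifs was in 1 of the 11 promoters of members, and they were in 1.84% (E2F) and 3.65% (FOXO) of all promoters of the table. Members without these motifs changed as well, and the promoter of *Mxd1*, which rose most at 6 h against 0 h, held neither. A part of the motifs in the changes was not tested. Both stretches are shown with the matches in capitals.
Mycn, chr12:12941970-12942046, minus strand: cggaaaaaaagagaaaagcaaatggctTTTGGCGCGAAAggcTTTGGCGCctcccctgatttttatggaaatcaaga
Mxi1, chr19:53329445-53329497, plus strand: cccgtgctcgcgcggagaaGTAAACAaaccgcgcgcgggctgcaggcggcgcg
These matches describe the letters of the windows, and no binding was measured.

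Total counts per library were between 65871454 and 105592597, and levels below are in CPM, counts relative to the TMM-scaled size of a library (factors 0.97 to 1.02). NSC markers summed to between 7683 and 10280 CPM in every library. Markers of microglia summed to at most 0.526 CPM, with *C1qa* at 0 and *Aif1* and *Cx3cr1* under 0.1 CPM. Of the 6 endothelial and pericyte markers, *Cldn5* and *Cdh5* were under 0.1 CPM and 4 had enough counts to be tested. Neuron markers summed to 19.7 to 38.7 CPM at 0 h and to 58.5 to 121.5 CPM at 6 h, astrocyte markers to 738.3 to 901 and 849.3 to 1059 CPM, mature oligodendrocyte markers to 6.29 to 6.84 and 7.71 to 8.22 CPM, ependymal markers to 46.3 to 87.3 and 37.8 to 59.8 CPM, and endothelial and pericyte markers to 6.03 to 15.6 and 5.402 to 8.718 CPM, and their part in the changes of the members was not tested. Genes within a list differed in direction at 6 h against 0 h. Log2 fold changes were positive for 4 and negative for 2 of the 6 neuron markers (-0.77 to 1.63). They were positive for 9 and negative for 3 of the 12 NSC markers (-0.43 to 0.65). For the 4 tested endothelial and pericyte markers, 2 were positive and 2 negative (-0.88 to 3.68). In bulk RNA fewer cells that express a gene and less RNA per cell cannot be told apart.

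Changes were tested in edgeR by quasi-likelihood, with the letter as a block and p-values adjusted over all 18858 genes by the Benjamini-Hochberg method (threshold 0.05). The block takes up differences between letters that run through all time points, and it lowered the common biological coefficient of variation from 0.277 to 0.0627. The 3 comparisons share libraries and are not independent of each other. At 1 h against 0 h, 2 members were higher (*Mycn* and *Mxd1*) and 1 was lower (*Myc*), beside 1.36% of all tested genes higher and 2.14% lower. Of the 10 members, 5 were higher at 6 h against 0 h (*Mycl*, *Mxi1*, *Mxd1*, *Mxd4* and *Mlx*) and 3 were lower (*Myc*, *Mycn* and *Mnt*), beside 17.4% and 17.5% of all genes. Between 1 h and 6 h 3 members were higher (*Mycl*, *Mxi1* and *Mxd1*) and 2 were lower (*Mycn* and *Mnt*), beside 18.0% and 17.5% of all genes. *Max* and *Mxd3* were past the threshold in no comparison.

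The calls of members rest on the pairing by letter. Without the block the same test called 0 of the 10 members in each comparison, beside 0.0424% of all genes in either direction at 1 h against 0 h, 2.42% at 6 h against 0 h and 2.14% at 6 h against 1 h. At an unadjusted p under 0.05 that fit had 1 member at 1 h against 0 h (*Myc*), 6 at 6 h against 0 h (*Myc*, *Mycl*, *Mxi1*, *Mxd1*, *Mnt* and *Mlx*) and 2 at 6 h against 1 h (*Mycn* and *Mnt*), beside 3.90%, 17.9% and 17.7% of all tested genes. DESeq2 without the block called 0 members at 1 h against 0 h, *Myc*, *Mxd1* and *Mlx* at 6 h against 0 h and *Mnt* at 6 h against 1 h, beside 0.525%, 9.24% and 8.99% of all tested genes in the 3 comparisons. The median absolute log2 fold change of the 10 members was 0.14, 0.38 and 0.26 in the 3 comparisons in the order given, beside 0.11, 0.20 and 0.21 over all tested genes.

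**Figure D1:**
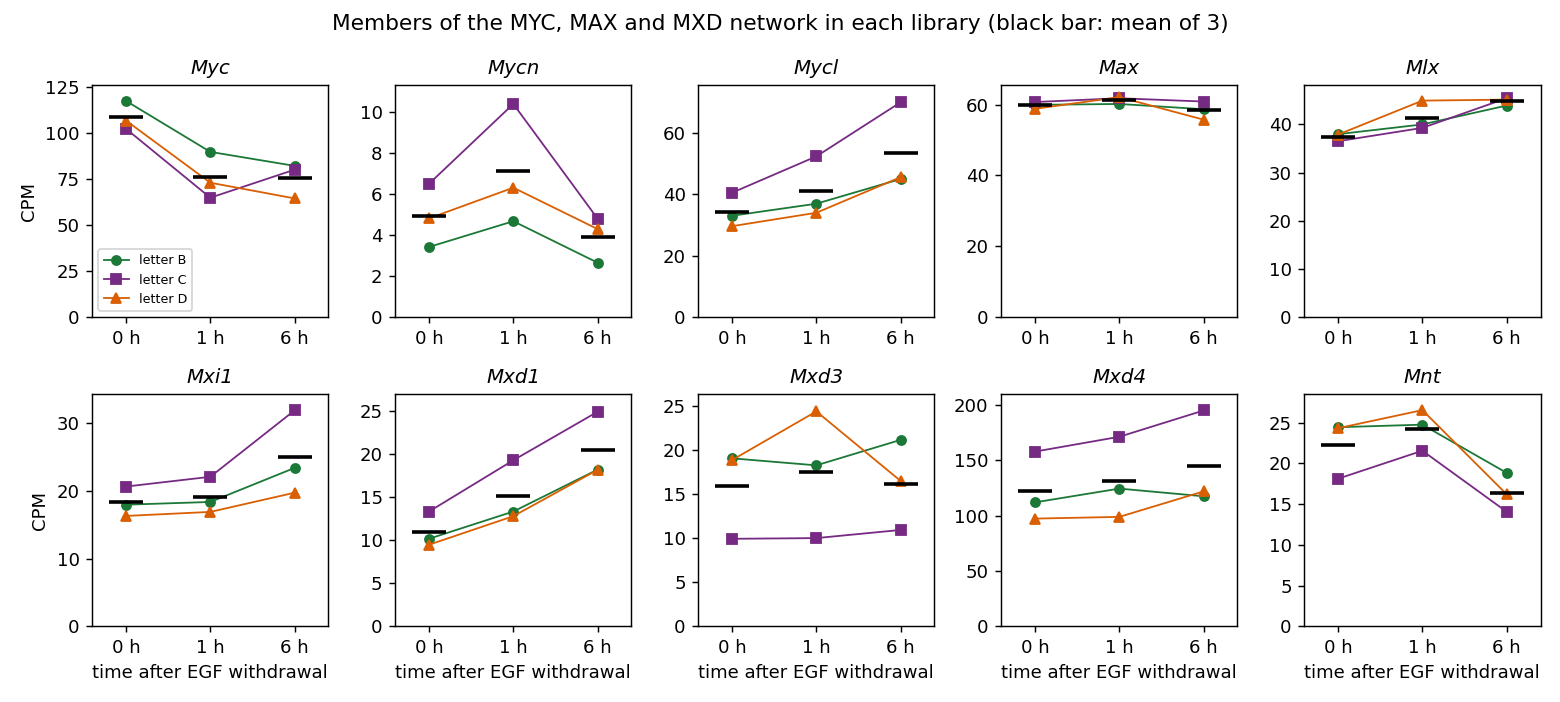
CPM (y axis, from 0) of each of the 10 members in each of the 9 libraries by time after EGF withdrawal (x axis), with 1 line per letter and black bars at the mean of 3 libraries. *Myc* drops between 0 h and 1 h in every letter, *Mycl* and *Mxd1* climb in every letter at both steps, and letter C stands above B and D for *Mxd4* and below them for *Mxd3* at all times.

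*Myc* (ENSMUSG00000022346, GRCm38 chr15:61985391-61990374, plus strand) encodes the founding activator of the network and is known as a gene that growth factors induce within minutes to hours. Its level was 117.6, 102.5 and 106.9 CPM in letters B, C and D at 0 h, 89.9, 64.9 and 73.1 CPM at 1 h, and 82.3, 80.2 and 64.5 CPM at 6 h. All libraries at 1 h and at 6 h lay below all those at 0 h, and the libraries at 1 h and 6 h overlapped. The mean fell from 109 ± 7.78 (SD, n = 3) to 76.0 ± 12.7 CPM at 1 h, a log2 fold change of -0.53 (SE 0.08, edgeR adjusted p = 0.00241, and 0.775 without the block). It was 75.7 ± 9.68 CPM at 6 h, -0.53 against 0 h (SE 0.08, edgeR adjusted p = 2.4e-04, and 0.0922 without the block). Between 1 h and 6 h the change was 0.00067 (SE 0.08, edgeR adjusted p = 0.996), with log2 ratios of -0.13, 0.30 and -0.18 in letters B, C and D.

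*Mycn* (ENSMUSG00000037169, chr12:12936093-12941914, minus strand) was the least abundant of the MYC genes, with 196 to 951 counts per library. Its level was 3.43, 6.51 and 4.83 CPM at 0 h in letters B, C and D, 4.69, 10.4 and 6.33 CPM at 1 h, and 2.66, 4.81 and 4.303 CPM at 6 h. In each letter it was highest at 1 h and lowest at 6 h, while the ranges of the time points overlapped and letter C ran above the other two throughout. *Mycn* rose at 1 h against 0 h by 0.52 on the log2 scale (SE 0.11, edgeR adjusted p = 0.0170, and 1.00 without the block). It fell by 0.84 from 1 h to 6 h (SE 0.11, edgeR adjusted p = 7.2e-05, and 0.263 without the block), a 1.79-fold drop. Against 0 h the level fell by 0.32 at 6 h (SE 0.11, edgeR adjusted p = 0.0385, and 0.732 without the block). The rise at 1 h was lost when any 0 h library or letter C at 1 h was left out (adjusted p up to 0.139), and the fall at 6 h against 0 h was lost without any 0 h library, letter B at 6 h or letter C at 6 h (up to 0.271), whereas the fall from 1 h to 6 h was kept in 9 of 9 such fits.

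*Mycl* (ENSMUSG00000028654, chr4:122995652-123002485, plus strand) encodes the third MYC protein, known as an amplified gene of small cell lung cancer. It was at 33.1, 40.6 and 29.7 CPM at 0 h in letters B, C and D, 37.0, 52.4 and 34.0 CPM at 1 h, and 45.1, 70.1 and 45.7 CPM at 6 h. Every letter climbed at both steps, and all libraries at 6 h lay above all at 0 h. The mean was 34.4 ± 5.58 and then 53.6 ± 14.3 CPM (SD, n = 3), a log2 fold change of 0.62 at 6 h against 0 h (SE 0.06, edgeR adjusted p = 1.1e-05, and 0.183 without the block). *Mycl* was also higher at 6 h than at 1 h, by 0.38 (SE 0.06, edgeR adjusted p = 5.2e-04, and 0.441 without the block). Its 1 h value of 0.24 above 0 h (SE 0.06) missed the threshold (edgeR adjusted p = 0.0557) and passed it in DESeq2 with the block (adjusted p = 0.0128).

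Levels per length, as RPKM (CPM per kilobase of the union of exons), show how the 3 MYC genes share the family. At 0 h *Myc* supplied 82.4%, 75.8% and 81.7% of the summed RPKM of *Myc*, *Mycl* and *Mycn* in letters B, C and D. The share was 75.8%, 59.7% and 72.2% at 1 h and 71.7%, 61.1% and 65.3% at 6 h. Every library at 6 h had a lower share of *Myc* than every library at 0 h. *Mycl* supplied 17.0% ± 2.76 (SD, n = 3) at 0 h, 25.3% ± 6.18 at 1 h and 31.1% ± 4.75 at 6 h, and *Mycn* 3.00% ± 0.998, 5.44% ± 2.33 and 2.84% ± 0.854. The RPKM of *Myc* was 4.80 ± 0.906 times that of *Mycl* at 0 h, 2.88 ± 0.924 times at 1 h and 2.17 ± 0.510 times at 6 h. These shares and ratios follow from the same counts as the tests above and are descriptions with no test of their own.

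*Max* (ENSMUSG00000059436, chr12:76937269-76962201, minus strand) encodes a partner shared by the MYC, MXD and MNT proteins. Its RefSeq promoter holds an E-box across the RefSeq start site, which lies before the 5′ end of the gene span given here. Its level was 59.9, 60.7 and 58.8 CPM at 0 h in letters B, C and D, 60.2, 61.8 and 62.1 CPM at 1 h, and 58.7, 60.8 and 55.7 CPM at 6 h. The 9 libraries thus differed little from each other and the time points overlapped. The log2 fold change was 0.04 at 1 h against 0 h (SE 0.05, edgeR adjusted p = 0.742), -0.03 at 6 h against 0 h (SE 0.05, edgeR adjusted p = 0.629) and -0.07 at 6 h against 1 h (SE 0.05, edgeR adjusted p = 0.284).

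*Mlx* (ENSMUSG00000017801, chr11:101087277-101092207, plus strand) encodes the other shared partner. Its level was 37.9, 36.5 and 37.9 CPM at 0 h in letters B, C and D, 39.97, 39.3 and 44.9 CPM at 1 h, and 43.9, 45.4 and 45.1 CPM at 6 h. No library at 1 h or 6 h was as low as any at 0 h, and the spread at 0 h and at 6 h was the smallest among the members that changed. The mean went from 37.4 ± 0.818 to 44.8 ± 0.810 CPM (SD, n = 3), a rise of 0.26 on the log2 scale at 6 h against 0 h (SE 0.06, edgeR adjusted p = 0.00287, and 0.106 without the block). The change at 1 h against 0 h was 0.14 (SE 0.06, edgeR adjusted p = 0.197) and that at 6 h against 1 h was 0.12 (SE 0.06, edgeR adjusted p = 0.121). *Mlx* shares 385 of its 1999 exon bases with *Psmc3ip* on the opposite strand, which had 1279 to 2222 counts per library, and reads there could not be told apart if the counting ignored strand.

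**Figure D2:**
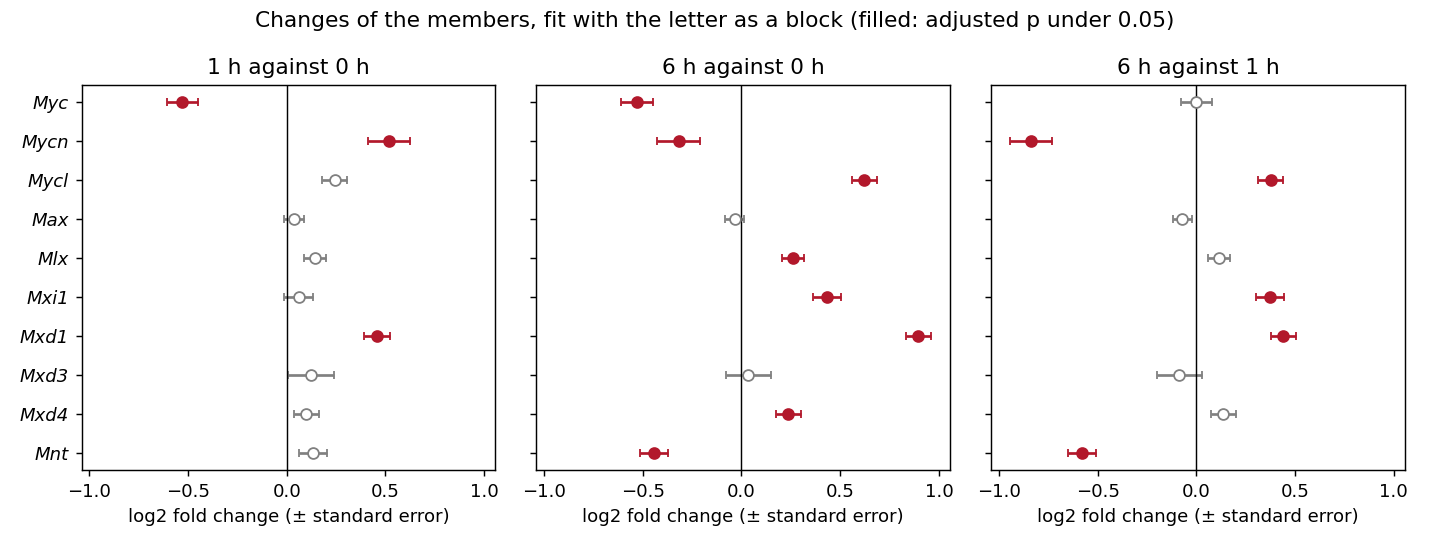
Log2 fold change (x axis) of each of the 10 members (y axis) with its standard error, in 3 panels for 1 h against 0 h, 6 h against 0 h and 6 h against 1 h, from edgeR with the letter as a block. Filled points passed an adjusted p of 0.05 over all tested genes. *Mxd1* lies farthest to the right at 6 h against 0 h (0.90) and *Myc* farthest to the left (-0.53).

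*Mxd1* (ENSMUSG00000001156, chr6:86647042-86669161, minus strand), also called *Mad1*, encodes a repressor that competes with MYC for MAX. It was at 10.2, 13.3 and 9.48 CPM at 0 h in letters B, C and D, 13.4, 19.3 and 12.8 CPM at 1 h, and 18.2, 25.0 and 18.2 CPM at 6 h. Each letter climbed at both steps, and the lowest library at 6 h was above the highest at 0 h. *Mxd1* rose by 0.46 at 1 h against 0 h (SE 0.07, edgeR adjusted p = 0.00176, and 1.00 without the block) and by 0.90 at 6 h against 0 h (SE 0.06, edgeR adjusted p = 6.1e-07, and 0.0716 without the block), a 1.86-fold rise. From 1 h to 6 h the rise was 0.44 (SE 0.06, edgeR adjusted p = 1.7e-04, and 0.344 without the block). The log2 ratios of the letters at 6 h against 0 h were 0.84, 0.90 and 0.94 in B, C and D, the narrowest range among the members that rose by over 0.3. The RPKM of *Myc* was 26.5 ± 5.63 times that of *Mxd1* at 0 h, 13.7 ± 4.497 times at 1 h and 9.78 ± 1.76 times at 6 h (SD, n = 3).

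*Mxi1* (ENSMUSG00000025025, chr19:53310518-53375810, plus strand), also called *Mxd2*, encodes a repressor of the same kind and has the promoter with the FOXO letters shown above. Its level was 18.0, 20.6 and 16.3 CPM at 0 h in letters B, C and D, 18.4, 22.1 and 16.9 CPM at 1 h, and 23.4, 31.9 and 19.7 CPM at 6 h. The time points 0 h and 1 h were nearly level within each letter, and each letter was highest at 6 h, with letter D at 6 h still below letter C at 0 h. It rose by 0.43 at 6 h against 0 h (SE 0.07, edgeR adjusted p = 5.0e-04, and 0.257 without the block) and by 0.37 at 6 h against 1 h (SE 0.07, edgeR adjusted p = 0.00147, and 0.337 without the block). At 1 h against 0 h the value was 0.06 (SE 0.07, edgeR adjusted p = 0.717).

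*Mxd4* (ENSMUSG00000037235, chr5:34173883-34187720, minus strand) had the highest CPM of the MXD genes and an E-box in its promoter. It was at 112.0, 157.9 and 97.3 CPM at 0 h in letters B, C and D, 124.4, 171.3 and 98.9 CPM at 1 h, and 117.4, 195.1 and 121.9 CPM at 6 h. Letter C was above both other letters at every time point, and the ranges of the time points overlapped. The rise at 6 h against 0 h was 0.24 (SE 0.06, edgeR adjusted p = 0.0117, and 0.742 without the block), and it was lost without letter C or D at 0 h or at 6 h (up to 0.0782). The values at 1 h against 0 h (0.10, SE 0.06, edgeR adjusted p = 0.443) and at 6 h against 1 h (0.14, SE 0.06, edgeR adjusted p = 0.114) missed the threshold.

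*Mxd3* (ENSMUSG00000021485, chr13:55325168-55329823, minus strand) encodes an MXD protein that is known to be present in proliferating cells. It was at 19.1, 9.92 and 18.9 CPM at 0 h in letters B, C and D, 18.3, 10 and 24.4 CPM at 1 h, and 21.1, 10.9 and 16.5 CPM at 6 h. Letter C was below both other letters at all times, and letters B and C were higher at 6 h than at 0 h while D was lower. Its log2 fold changes were 0.12, 0.04 and -0.09 at 1 h against 0 h, 6 h against 0 h and 6 h against 1 h, each with a standard error of 0.12 (edgeR adjusted p = 0.629, 0.846 and 0.605). *Mxd3* shares 105 of its 2369 exon bases with *Prelid1* on the opposite strand, which had 10949 to 17853 counts per library.

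*Mnt* (ENSMUSG00000000282, chr11:74830920-74845725, plus strand) encodes a larger MAX partner that many cell types express both when they proliferate and when they rest. It was at 24.5, 18.1 and 24.3 CPM at 0 h in letters B, C and D, 24.8, 21.6 and 26.6 CPM at 1 h, and 18.8, 14.1 and 16.2 CPM at 6 h. Each letter was lowest at 6 h, every library at 6 h lay below every library at 1 h, and letter C was the lowest of its time point throughout. *Mnt* fell by 0.58 from 1 h to 6 h (SE 0.07, edgeR adjusted p = 5.6e-05, and 0.109 without the block) and by 0.44 from 0 h to 6 h (SE 0.07, edgeR adjusted p = 4.0e-04, and 0.180 without the block). At 1 h against 0 h the value was 0.13 (SE 0.07, edgeR adjusted p = 0.342). Among the 5 repressor genes, *Mnt* was the only member that fell past the threshold at 6 h, beside rises of *Mxd1*, *Mxi1* and *Mxd4*.

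Letters differed for several members at all times. The mean level in letter C over the 3 time points was 1.56 times that of letters B and D for *Mxd4* and 0.522 times for *Mxd3*. *Mycn*, *Mycl*, *Mxi1* and *Mxd1* were highest in letter C at 3 of 3 time points and *Mnt* was lowest there at 3 of 3. *Max* and *Mlx* were nearly the same in the 3 letters, with letter C at 1.03 and 0.970 times the level of the other letters.

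Per length over the union of exons, *Myc* was the most abundant member at every time point. Its mean was 40.1 RPKM at 0 h, 28.0 RPKM at 1 h and 27.8 RPKM at 6 h, and its range did not overlap that of the next gene, *Mlx* (18.7, 20.7 and 22.4 RPKM). *Max* followed at 0 h with 16.6 RPKM, below *Mlx* without overlap, and overlapped *Mxd4* (14.4 RPKM). Next came *Mycl* (8.53 RPKM), *Mxd3* (6.73 RPKM) and *Mnt* (4.82 RPKM), of which neighbours overlapped, and then *Mxi1* (2.68 RPKM), below *Mnt* without overlap. *Mxd1* (1.56 RPKM) and *Mycn* (1.49 RPKM) were lowest at 0 h and overlapped each other. At 6 h *Mlx*, *Mxd4* (17.1 RPKM), *Max* (16.2 RPKM) and *Mycl* (13.3 RPKM) each overlapped the next, and so did *Mxd3* (6.83 RPKM), *Mxi1* (3.67 RPKM), *Mnt* (3.54 RPKM) and *Mxd1* (2.89 RPKM). *Mycn* (1.19 RPKM) was then the lowest, without overlap. This order depends on the length used. With the longest transcript as the length, *Max* and *Mxd4* stand above *Mlx*, and *Myc* is apart from both at 0 h alone (43.8 to 50.3 RPKM, with *Max* at 30.3 to 31.3 and *Mxd4* at 21.03 to 34.1 RPKM). *Max* at 1 h (31.0 to 32.0 RPKM) then overlaps *Myc* (27.8 to 38.4 RPKM), as does *Mxd4* at 6 h (25.4 to 42.2 RPKM, with *Myc* at 27.6 to 35.2 RPKM).

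**Figure D3:**
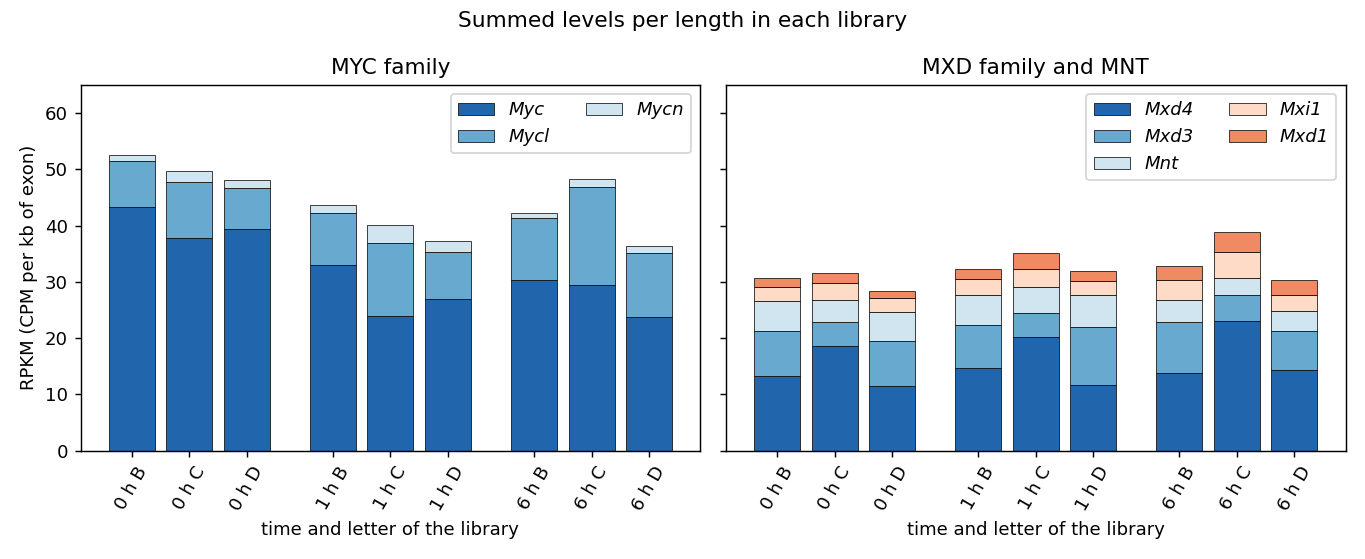
Stacked bars of RPKM (y axis, from 0) in each of the 9 libraries (x axis, time and letter), for *Myc*, *Mycl* and *Mycn* on the left and for *Mxd4*, *Mxd3*, *Mnt*, *Mxi1* and *Mxd1* on the right. The MYC family bars are between 48.2 and 52.5 RPKM at 0 h and between 37.3 and 43.7 RPKM at 1 h, and the bars of the repressors range from 28.4 to 38.9 RPKM.

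Summed over the family, the MYC genes were at 52.5, 49.7 and 48.2 RPKM at 0 h in letters B, C and D, 43.7, 40.04 and 37.3 RPKM at 1 h, and 42.2, 48.3 and 36.4 RPKM at 6 h. All sums at 1 h were below all sums at 0 h, whereas letter C at 6 h was above letter D at 0 h. The 4 MXD genes and *Mnt* summed to 30.6, 31.6 and 28.4 RPKM at 0 h, 32.3, 35.0 and 32.0 RPKM at 1 h, and 32.9, 38.9 and 30.3 RPKM at 6 h. The ratio of the MYC sum to the repressor sum was 1.72, 1.57 and 1.69 at 0 h, 1.35, 1.14 and 1.17 at 1 h, and 1.29, 1.24 and 1.201 at 6 h. Every ratio at 1 h and 6 h was thus below every ratio at 0 h, with means of 1.66 ± 0.0775, 1.22 ± 0.114 and 1.24 ± 0.0426 (SD, n = 3). With the longest transcript as the length the ratios were 1.26 ± 0.104, 0.927 ± 0.0987 and 0.921 ± 0.0493, so that the fall from 0 h was there under both lengths, while the family with the larger sum at 1 h and 6 h was not the same. These sums weigh transcripts only, and no test was made of them.

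Other proteins that dimerise within the network were listed beside the members. *Mlxip*, which encodes MondoA, went from 32.6 ± 1.498 (SD, n = 3) to 39.2 ± 0.896 CPM between the 0 h and 6 h libraries and rose by 0.27 on the log2 scale (edgeR adjusted p = 0.00409, and 0.114 without the block), with a rise of 0.33 from 1 h to 6 h (edgeR adjusted p = 0.00103, and 0.0681 without the block). *Mlxipl*, which encodes ChREBP, was close to absent at 0.134 CPM at 0 h and 0.144 CPM at 6 h (edgeR adjusted p = 0.920). *Mga*, which encodes a MAX partner of the PRC1.6 repressor complex, was at 159.1 ± 31.0 CPM at 0 h and 137.4 ± 22.7 CPM at 6 h (edgeR adjusted p = 0.0778). At 1 h it was at 133.6 ± 41.5 CPM, -0.28 from 0 h (edgeR adjusted p = 0.0968, and 0.0303 in DESeq2 with the block), and with GC and length trends removed it passed at 1 h and at 6 h against 0 h (edgeR adjusted p = 0.0352 and 0.0391).

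Of 5 corepressor genes of MXD and MNT, 0 were past the threshold at 1 h against 0 h (0 at an unadjusted p under 0.05 in edgeR, and 0 in DESeq2 with the block), and 3 were lower and 0 higher at 6 h against 0 h, beside 17.5% and 17.4% of all tested genes. The histone deacetylase genes *Hdac1* and *Hdac2* fell by 0.27 and 0.22 on the log2 scale (edgeR adjusted p = 6.8e-04 and 0.00400, and 0.261 and 0.152 without the block). *Sin3a*, the scaffold gene, fell by 0.16 (edgeR adjusted p = 0.0327, and 0.371 without the block), a call lost without any 0 h library or letter B or C at 6 h (up to 0.196). *Sin3b* (0.07) and *Ncor1* (-0.01) did not pass. Against 1 h 2 of 5 were lower at 6 h, *Hdac1* at -0.33 and *Hdac2* at -0.23, beside 17.5% of all tested genes.

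Among 10 coactivators and partners of MYC, 0 passed at 1 h against 0 h (1 at an unadjusted p under 0.05 in edgeR, and 0 in DESeq2 with the block), and 4 were lower and 0 higher at 6 h against 0 h, beside 17.5% and 17.4% of all tested genes, with a median log2 fold change of -0.05. They were the helicase gene *Ruvbl2* (-0.26), the acetyltransferase gene *Kat2a* (-0.25), *Wdr5* (-0.18), whose protein recruits MYC to chromatin, and *Actl6a* (-0.15). Without the block their edgeR adjusted p lay between 0.194 and 0.594. The call of *Wdr5* was lost without letter B or C at 0 h or letter B at 6 h (up to 0.0795), and that of *Actl6a* without any 0 h library, letter C at 1 h or letter C or D at 6 h (up to 0.212). From 1 h to 6 h 4 were lower, led by *Ruvbl2* (-0.32), *Kat2a* (-0.29) and *Actl6a* (-0.24), and 3 were higher, led by *Trrap* (0.26), the scaffold of the acetyltransferase complexes, beside 17.5% and 18.0% of all tested genes.

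Turnover of MYC protein is described here by 9 of the 10 genes listed for it, of which 3 were higher and 2 lower at 6 h against 0 h, beside 17.4% and 17.5% of all tested genes. *Fbxw7*, the ubiquitin ligase that recognises phosphorylated MYC, rose by 0.22 (edgeR adjusted p = 0.00331, and 0.121 without the block). *Trpc4ap* rose by 0.20 and *Usp28*, a deubiquitinase that counters FBXW7, by 0.20, the last not without letter B at 0 h or 6 h (adjusted p up to 0.0951). *Skp2*, another ubiquitin ligase of MYC, fell by 0.23 and *Ppp2r5a*, a phosphatase subunit, fell by 0.19, the last not without letter B or D at 0 h or 6 h (up to 0.1002). At 1 h against 0 h, *Skp2* was the only one of the 9 past the threshold (-0.21, edgeR adjusted p = 0.04998), and 1 of 9 fits with a library left out, that without letter D at 6 h, kept this call. From 1 h to 6 h 5 were higher, led by *Usp28* at 0.39, *Aurka* at 0.30 and *Fbxw7* at 0.20, and 1 was lower (*Ppp2r5a*, -0.20, lost without letter B or D at 6 h, adjusted p up to 0.0673), beside 18.0% and 17.5% of all tested genes.

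Genes that MYC is known to induce were taken as a list of 36, compiled from general knowledge of other cell types. Like the other lists, it was chosen with earlier results of these data known, so its counts are no independent support. At 1 h against 0 h, when *Myc* had already fallen, 0 of the 36 were higher and 1 was lower, beside 1.36% and 2.14% of all tested genes, with a median log2 fold change of -0.02. The gene was *Cdc25a*, a phosphatase of the cell cycle, which fell by 0.22 (edgeR adjusted p = 0.0392, and 1.00 without the block), a call lost without any 0 h library, letter B or C at 1 h or letter C at 6 h (up to 0.261). At 6 h against 0 h, 25 were lower and 1 was higher, with a median of -0.30, beside 17.5% and 17.4% of all tested genes. Against 1 h, 29 were lower at 6 h and 1 was higher, with a median of -0.30, beside 17.5% and 18.0% of all tested genes. In this list *Rcl1* stands by mistake for another gene. Without it 1 of 35 was lower at 1 h against 0 h (median -0.02). At 6 h 25 of 35 were lower against 0 h (median -0.31) and 28 of 35 against 1 h (median -0.30).

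The largest falls of the list at 6 h against 0 h were those of *Nop58*, *Shmt1*, *Ncl* and *Npm1*. *Nop58*, a protein of box C/D snoRNPs, fell from 209.2 ± 46.0 to 132.4 ± 33.3 CPM (SD, n = 3), a log2 fold change of -0.67 (edgeR adjusted p = 7.7e-07, and 0.201 without the block). *Shmt1*, an enzyme of one-carbon metabolism, was at -0.65, *Ncl*, which encodes nucleolin, at -0.61 and *Npm1*, which encodes nucleophosmin, at -0.60 (edgeR adjusted p = 1.2e-06, 2.5e-06 and 5.9e-06, and 0.108, 0.227 and 0.0627 without the block). *Nampt*, an enzyme of NAD synthesis, was the gene that rose, by 0.33 (edgeR adjusted p = 3.9e-04). Without the block 1 of the 36 was past the threshold at 6 h against 0 h, *Pa2g4* (edgeR adjusted p = 0.0454), beside 2.42% of all tested genes in either direction. Between 1 h and 6 h the 4 largest falls were those of *Shmt1* (-0.67), *Ncl* (-0.57), *Fbl* (-0.57) and *Npm1* (-0.56). An E-box was in 10 of the 34 RefSeq promoters of the listed genes (9 of 29 genes), beside 7.15% of all promoters of the table.

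**Figure D4:**
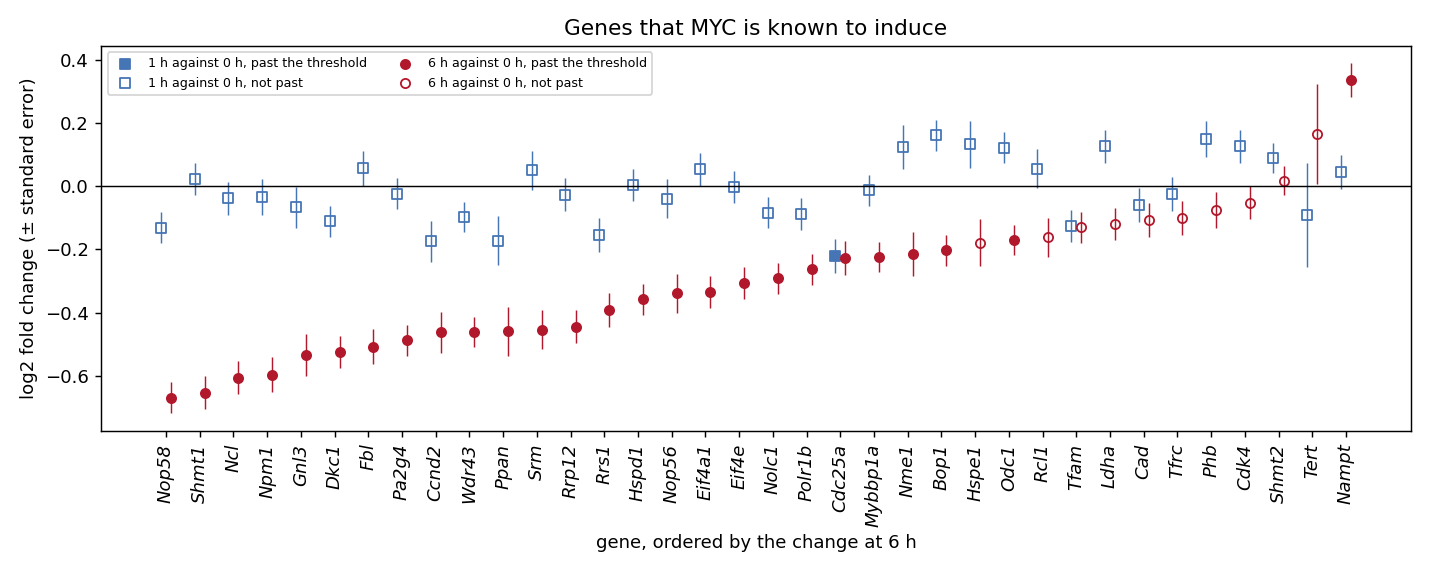
Log2 fold change with its standard error (y axis) of the 36 genes listed as induced by MYC, among which *Rcl1* stands by mistake. Genes are ordered by the change at 6 h (x axis), for 1 h against 0 h (squares) and 6 h against 0 h (circles). Filled symbols passed an adjusted p of 0.05 in edgeR with the letter as a block. At 1 h 1 symbol is filled, and at 6 h 25 filled circles lie below 0 and 1 above it.

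Genes that MYC is known to repress formed a short list of 6, also from general knowledge. *Cdkn1a*, the CDK inhibitor p21, rose by 0.30 at 1 h (edgeR adjusted p = 0.00249, and 1.00 without the block) and fell by 0.19 from 1 h to 6 h (edgeR adjusted p = 0.00540). *Ndrg1* was the gene higher at 6 h against 0 h, by 1.21 (edgeR adjusted p = 0.0206, and 0.204 without the block), with 0.403 ± 0.146 CPM at 0 h and 0.933 ± 0.361 CPM at 6 h, and its call was lost without letter B or D at 0 h or 6 h (up to 0.139). *Gas1*, a growth arrest gene, was the gene that fell, by 0.34 (edgeR adjusted p = 0.00117, and 0.673 without the block). At 6 h against 1 h 1 of the 6 was higher (*Ndrg1*, 1.22) and 2 were lower (*Gas1*, -0.20, and *Cdkn1a*). The shares of all tested genes there were 18.0% and 17.5%. The call of *Ndrg1* was lost without letter B or D at 1 h or 6 h (up to 0.115). That of *Gas1* was lost without letter B or C at 1 h or 6 h (up to 0.215). At 6 h against 0 h 1 was higher and 1 lower, beside 17.4% and 17.5% of all tested genes. The median log2 fold change of the list was then -0.01. At 1 h against 0 h 1 was higher and 0 lower, beside 1.36% and 2.14%. The other genes of the list passed in no comparison.

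Targets that MLX activates with MondoA or ChREBP were *Txnip* and *Arrdc4*, arrestin-like genes that respond to glucose, and *Pklr*, which was too low to be tested. *Txnip* fell from 3.99 ± 1.65 to 2.12 ± 0.438 CPM at 1 h (SD, n = 3), a log2 fold change of -0.84 (edgeR adjusted p = 0.0167, and 1.00 without the block). This call was lost without any 0 h library or letter B or D at 1 h (up to 0.111), and that of *Arrdc4* at 1 h without any 0 h library or letter B at 1 h (up to 0.0920). It rose by 0.88 from 1 h to 6 h (edgeR adjusted p = 0.00139, and 0.313 without the block) and was then at 4.19 ± 2.09 CPM, 0.04 from 0 h. *Arrdc4* fell by 0.35 at 1 h (edgeR adjusted p = 0.0113, and 0.853 without the block) and fell by 0.30 at 6 h against 0 h (edgeR adjusted p = 0.00351, and 0.147 without the block).

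Genes with a time course like that of *Mxd1* and of *Myc*, the members with the largest rise and the largest fall at 6 h against 0 h, were found by Pearson correlation of log2 CPM over the 9 libraries with the mean of each letter subtracted, among 13577 genes. The nearest to *Mxd1* were *Tspan5* (0.995), *Ets1* (0.995), *Plod3* (0.994), *Phf21b* (0.994) and *Rin2* (0.994). Means at the 3 successive times were 36.6, 62.1 and 105.9 CPM for *Ets1*, an ETS-domain factor, and 29.8, 48.8 and 79.2 CPM for *Rin2*. The nearest to *Myc* were *Tmem87a* (0.983), *Fam161a* (0.970), *Cdr2l* (0.968), *Klf10* (0.967) and *Nkapd1* (0.961). *Klf10*, a zinc finger factor that TGF-beta induces, had means of 105.8, 74.6 and 68.6 CPM. The points share libraries, depth and 3 time points, and without the subtraction the correlation of *Tspan5* with *Mxd1* was -0.29 and that of *Tmem87a* with *Myc* was -0.06.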

How the data were processed

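The authors deposited raw counts of reads per Ensembl gene for 9 libraries of stranded mRNA, which, per the labels and methods, were made from paired-end reads with STAR 2.5.3a on mm10 (GRCm38) and were not normalised. FastQC was used for quality and DESeq2 1.22.1 for their own comparisons. The strand setting of the counting is not given in the sources used here. All 9 count columns matched 1 library each. Of the gene identifiers, 48144 were found in GENCODE M21.

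Genes were kept with filterByExpr (minimum count 10, minimum total 15), scaled with TMM and tested in R 4.3.3 with glmQLFit and glmQLFTest of edgeR 4.0.16, time point and letter as factors, on all 9 libraries. The Benjamini-Hochberg adjustment ran over 18858 genes. Standard errors were derived from the F statistic. After subtraction of the time point means, same-letter libraries correlated at 0.733 to 0.800 in 9 pairs, so the letters were taken to pair the libraries. The other 18 pairs were at -0.462 to -0.314. Such negative values follow from the subtraction when same-letter libraries correlate, and add nothing to the pairing. Nothing says that libraries came from separate animals. The p-values of the main fit measure the spread among these libraries that is left after the block takes out differences between letters. DESeq2 1.42.0, other scalings and filters, GC and length correction (splines with 4 degrees of freedom), a threshold of 0.01 and each library left out were alternatives. The main fit alone was tested on simulated data. These were drawn from the same model with the block, so they cannot show whether the block is right. Tables and figures came from pandas 2.3.3 and matplotlib 3.10.9.

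The members, lists and tests were chosen with earlier results of these data known. Named are all members, up to 4 genes per list and comparison with the largest changes past the threshold, every gene of lists under 6 genes, and the 5 genes most like the 2 extreme members at 6 h. *Pa2g4*, *Nampt* and *Ppp2r5a* were named after their values were seen. 1 gene listed for MYC turnover is not reported here, and the naming rule and the counts leave it out.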

Additional observations from a re-analysis of the deposited data

How the results depend on the processing

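The calls of the members depend on the pairing by letter. With no replicate block, edgeR called 0 members higher and 0 lower in each comparison, and over all genes 8 higher and 0 lower at 1 h against 0 h, 276 and 180 at 6 h against 0 h, and 279 and 125 at 6 h against 1 h. DESeq2 with no replicate block called 0 members higher and 0 lower at 1 h (all genes 55 and 44), 2 and 1 at 6 h against 0 h (929 and 813), and 0 and 1 at 6 h against 1 h (932 and 763). No filter on low counts gave 581 genes higher and 788 lower at 1 h against 0 h. An adjusted p under 0.01 left 1 member higher at 1 h and, over all genes, 129 higher and 111 lower at 1 h, 2142 and 2128 at 6 h against 0 h, and 2223 and 2023 at 6 h against 1 h. Library totals without a scaling factor gave 5 members higher and 2 lower at 6 h against 1 h. Over all genes 3956 were then higher and 2665 lower, beside 3401 and 3309 in the main fit.

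Values that changed sign belonged to members past the threshold in neither fit. *Myc* at 6 h against 1 h was -0.0056 with no block, -0.0074 and -0.013 in DESeq2 with and without it, -0.0073 with RLE scaling, -0.0063 with only the 6 libraries compared and -0.056 with GC and length trends removed. That last setting gave -0.0022 for *Max* at 1 h against 0 h and -0.080 for *Mxd3* at 6 h against 0 h. The likeness of *Tspan5* to *Mxd1* was -0.29 and that of *Tmem87a* to *Myc* -0.056 without subtraction of the letter means. The cause was not tested.

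With each library left out, 1 to 3 members were higher at 1 h against 0 h (1 without any 0 h library or letter C at 1 h, and 3 without letter D at 1 h or 6 h), and over all genes 126 (without letter C at 0 h) to 325 were higher and 84 (without letter D at 0 h) to 561 (without letter D at 6 h) lower there. Genes lower at 6 h against 0 h numbered 2147 (without letter C at 0 h) to 4055. *Mxd3* ranged from -0.083 to 0.24, from -0.075 to 0.21 and from -0.21 to 0.11 in the 3 comparisons, and *Myc* at 6 h against 1 h from -0.11 to 0.094. Of the 16 called values of members, 13 kept their call in each of the 9 fits, all other than *Mycn* at 1 h and 6 h against 0 h and *Mxd4* at 6 h against 0 h. These 16 kept their call in DESeq2 with the block, with RLE scaling, with GC and length trends removed, with either other filter and with only the 6 libraries compared. With library totals *Mycn* at 6 h against 0 h was lost. The 3 libraries per group limit the precision.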
